A study of Mus musculus with 6 samples.

Results

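Meis1, Meis2, Meis3, Pbx2, Pbx3, Nr2f1 and Nr2f2 are genes for transcription cofactors of embryonic position, and their RNA was followed here in 3 adult mouse bones. The members were all probe sets that the annotation of the array assigns to one of these 7 symbols, which gave 20 of the 45101 probe sets on each array. Of these, 16 probe sets, at least 1 for each of the 7 genes, exceeded the median signal of the array on 2 or more of the 6 arrays and were tested. The other 4 (1 of Meis2 and 3 of Nr2f2) are given by value only.

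RNA of adult male mice, named Black CD57 in the methods and weighing 24 to 26 g, was hybridised to 6 Affymetrix mouse arrays in a pilot of basal expression in bone. Mandible taken with its teeth, calvaria freed of its sutures, and ulna freed of soft tissue and epiphyses had 2 arrays each, all from untreated bone with no transgene or allele named. The bones were ground whole, so every value is a level of bulk tissue, where fewer cells of a type and less RNA per cell cannot be told apart. The methods speak of mice divided into 2 groups for this pilot, without saying how many gave RNA to each array, and the p-values measure only the spread between the 2 arrays of a site, which may be technical.

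Meis and Pbx proteins are homeodomain proteins of the TALE class, which bind DNA together and act as partners of the Hox proteins that set position along the body and limb. Meis1 and Meis2 mark the proximal part of the embryonic limb bud and in the chick limb bud are induced by retinoic acid, while Meis2 is needed for the cranial neural crest, from which the mandible and part of the calvaria form. Nr2f1 and Nr2f2 encode the orphan nuclear receptors COUP-TFI and COUP-TFII, which bind as dimers to repeats of a short motif and can repress retinoid responses by competing with the retinoid receptors.

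The main difference between sites was carried by 1 Meis and 1 Nr2f gene, each with a close relative that was not called between calvaria and ulna. Meis1, the relative of Meis2, was also lower in mandible than in calvaria at 1 of its 3 probe sets. By the ratio of geometric means, Meis2 was 7.74-fold higher in calvaria than in ulna and Nr2f1 was 7.50-fold higher. Because the ulnar signals lay under the array median, these folds are uncertain. Both genes were tested only through their calvaria arrays, so they had to be highest there. The 3 tested Meis2 probe sets gave 7.74-, 9.44- and 28.6-fold, and with an offset of 0.25 of the median the log2 difference was 2.31 for Meis2 and 2.36 for Nr2f1, where it was 2.95 and 2.91 with none. In mandible Nr2f1 lay near the ulnar level, at 0.177 of the calvarial one, and so did Meis2 at its brightest probe set (0.0957 of the calvarial level), whereas a second Meis2 probe set placed mandible between calvaria and ulna. Pbx2 and Pbx3, by contrast, were well above the array median at every site and differed by less than 2-fold at their brightest probe sets.

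The promoters of the 2 genes that separated the calvaria are shown beside those of their relatives, to let the flanking DNA of each pair be compared. RefSeq promoter windows on GRCm38.p6 were found for 6 of the 7 genes, and Nr2f1 had 2 windows, of which the one farther upstream is given. Each line holds the 250 bases before the annotated start, 5′ to 3′ on the strand of the gene, with CG dinucleotides in capitals. Meis2 is at chr2:116064620-116064869, Meis1 at chr11:19018970-19019219, Nr2f1 at chr13:78198874-78199123 and Nr2f2 at chr7:70366747-70366996, all on the minus strand.
Meis2: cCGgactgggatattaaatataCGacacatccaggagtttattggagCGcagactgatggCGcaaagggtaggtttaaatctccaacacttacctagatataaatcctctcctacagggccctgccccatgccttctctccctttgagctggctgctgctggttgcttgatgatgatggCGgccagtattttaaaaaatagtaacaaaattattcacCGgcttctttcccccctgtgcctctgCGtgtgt
Meis1: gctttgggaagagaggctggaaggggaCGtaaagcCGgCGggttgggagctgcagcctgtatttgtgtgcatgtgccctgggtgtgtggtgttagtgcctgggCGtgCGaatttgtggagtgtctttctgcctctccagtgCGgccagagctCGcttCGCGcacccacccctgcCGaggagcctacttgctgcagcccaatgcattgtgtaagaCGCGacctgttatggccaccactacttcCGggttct
Nr2f1: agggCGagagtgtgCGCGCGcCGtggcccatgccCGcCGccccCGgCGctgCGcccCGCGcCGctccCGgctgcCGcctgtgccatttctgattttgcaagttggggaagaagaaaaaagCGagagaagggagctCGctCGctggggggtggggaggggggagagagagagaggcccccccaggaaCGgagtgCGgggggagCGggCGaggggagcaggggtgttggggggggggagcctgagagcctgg
Nr2f2: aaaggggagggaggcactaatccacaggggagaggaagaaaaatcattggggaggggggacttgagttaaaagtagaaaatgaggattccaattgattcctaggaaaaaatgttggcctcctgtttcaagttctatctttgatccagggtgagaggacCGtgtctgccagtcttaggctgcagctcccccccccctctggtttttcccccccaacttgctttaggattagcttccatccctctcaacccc
The 250 bases held 7 CG dinucleotides for Meis2 and 13 for Meis1, against 22 for Nr2f1 and 1 for Nr2f2, and the median over all 32851 windows was 6. At least as many as in Nr2f1 were found in 14.8% of all windows, and at least as many as in Meis2 in 46.3%. The second window of Nr2f1 held 2, fewer than Meis2, so the order of these genes by CG content depends on the window. The letters TGACAG (a Meis core), TGATTGAC (a composite of Pbx and Meis) and AGGTCA (the motif of nuclear receptor repeats), none of which holds another, were searched on both strands of the 300 bases from 250 before to 50 after the start. They were in 19.2%, 0.770% and 16.3% of all windows and in 0 of the 7 member windows.

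Signal is the MAS5 intensity that the authors deposited, on a linear scale with a trimmed mean of 100 on every array. The medians of the arrays lay between 30.6 and 33.6. A log2 difference is taken after each array is divided by its median, and a probe set is called where the adjusted p is under 0.05 and the difference at least 2-fold. Arrays of the same site had log2 values that correlated at 0.952 to 0.956, and arrays of different sites at 0.797 to 0.862. The bone was checked with osteoblast and osteocyte markers, which summed to signals of 35626 and 34687 on the mandible arrays, 33152 and 36290 on the calvaria arrays, and 8247 and 8569 on the ulna arrays, with none of the 8 genes below a mean signal of 10 at any site.

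**Figure D1:**
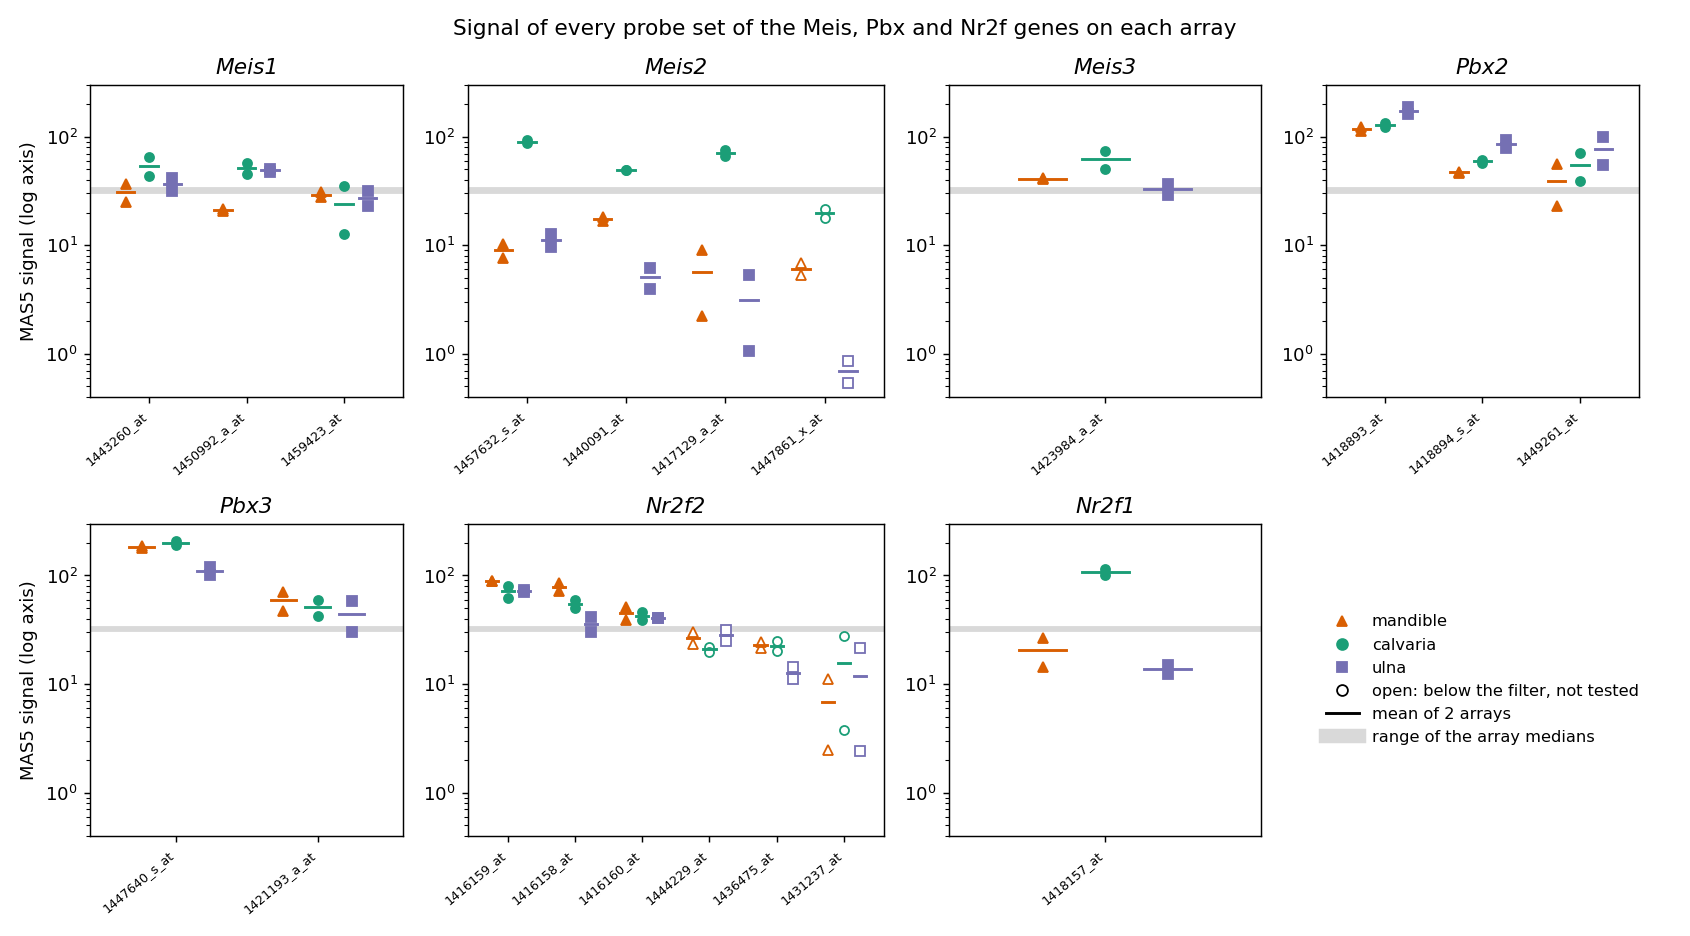
MAS5 signal (log axis) of all 20 probe sets of the 7 genes on each array, with mandible, calvaria and ulna from left to right within a probe set, a short bar at the mean of 2 arrays and a grey band at the array medians (30.6 to 33.6). The calvaria points of Meis2 and Nr2f1 stand clear of both other sites, with signals of 87.3 and 93.2 at the brightest Meis2 probe set and 114 and 101 for Nr2f1.

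Meis2 had its highest signal in calvaria at all 4 of its probe sets. At the brightest one, 1457632_s_at, the signal was 10.4 and 7.62 in mandible, 87.3 and 93.2 in calvaria, and 9.61 and 12.7 in ulna. Both calvaria arrays stood above all others, while the mandible and ulna arrays overlapped. Every tested Meis2 probe set passed the filter on low signal through the calvaria arrays alone, so it had to be highest there. The log2 difference between calvaria and ulna was 2.95 (SE 0.57, 95% interval 1.70 to 4.20, adjusted p = 0.00256), and that between mandible and calvaria was -3.38 (SE 0.57, adjusted p = 0.00147). Between mandible and ulna it was -0.43, with an interval of -1.68 to 0.82, which holds a fall of over 2-fold but not a rise of that size. Without the calvaria array of replicate 2 the first of these stayed at 2.90 but had an adjusted p of 0.0556.

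The other Meis2 probe sets gave the same direction for calvaria against ulna and differed on the place of the mandible. At 1440091_at the signal was 16.7 and 18.1 in mandible, 49.5 and 49.1 in calvaria, and 3.99 and 6.15 in ulna. There the 3 sites formed separate steps, with a log2 difference of 3.24 for calvaria against ulna (adjusted p = 0.00573). The intermediate level of the mandible passed neither test, at 1.69 against ulna (adjusted p = 0.0768) and -1.54 against calvaria (adjusted p = 0.154).

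At 1417129_a_at, which reads alternative transcripts of Meis2, the signal was 9.04 and 2.22 in mandible, 66.3 and 76.2 in calvaria, and 1.06 and 5.27 in ulna. Calvaria stood above both other sites, which overlapped, and the difference from ulna was 4.84 on the log2 scale (SE 1.42, adjusted p = 0.0258). Its size was poorly fixed, at 3.67 without ulna replicate 1, 6.004 without ulna replicate 2 and 2.82 with an offset of 0.25 of the median, and without moderated variances it was not called (adjusted p = 0.119). Mandible minus calvaria was -4.03 and did not pass (adjusted p = 0.0678). The probe set that was not tested, 1447861_x_at, whose suffix marks possible cross-hybridisation, had 6.87 and 5.34 in mandible, 17.9 and 21.6 in calvaria, and 0.853 and 0.542 in ulna, in the same order of sites as 1440091_at. Leaving out a calvaria array ended the calls of calvaria against ulna at 1440091_at (adjusted p = 0.0626 without replicate 1 and 0.0661 without replicate 2) and at 1417129_a_at (0.194 and 0.237).

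Meis1, the relative of Meis2 best known from blood stem cells, was not called between calvaria and ulna. Its brightest probe set, 1443260_at, read 36.4 and 25.1 in mandible, 43.6 and 65.0 in calvaria, and 41.7 and 31.7 in ulna. Both calvaria arrays were above both ulna arrays, with a difference of 0.47 (interval -0.34 to 1.29, adjusted p = 0.376), and no comparison was called. At 1450992_a_at, which reads alternative transcripts, the signal was 20.7 and 21.5 in mandible, 57.7 and 45.8 in calvaria, and 47.1 and 50.6 in ulna.

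Here the mandible arrays lay below the other 4, which overlapped. Meis1 fell in mandible by this probe set, by a log2 difference of -1.33 against ulna (SE 0.34, adjusted p = 0.00825) and -1.33 against calvaria (adjusted p = 0.0164). The comparison with calvaria lost its call without mandible replicate 1 (adjusted p = 0.0534) or without calvaria replicate 1 (0.122). The third probe set, 1459423_at, had signals between 12.6 and 35.5 over all 6 arrays with all sites overlapping. At 1443260_at mandible was also below calvaria on both arrays, by a difference that was not called (-0.86, interval -1.67 to -0.04, adjusted p = 0.129), so the call was made at 1 of 3 probe sets. Both mandible arrays were below the array median at 1450992_a_at.

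The summed signal of 7 genes of stem cells and megakaryocytes, a cell type in which Meis1 is known to be expressed, was 3142 and 3117 in mandible, 4097 and 4110 in calvaria, and 7539 and 7531 in ulna. Of these genes 4 of 7 were lower in mandible than in ulna and 0 of 7 differed between mandible and calvaria by the call. Over all genes 10.9% were lower and 11% higher in mandible than in ulna. In mandible against calvaria 4.01% were lower and 5.14% higher. The part of stem cells and megakaryocytes in the Meis1 values was not tested.

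Meis3, the third Meis gene, was read by 1 probe set, with 41.9 and 40.4 in mandible, 50.5 and 74.5 in calvaria, and 36.5 and 28.9 in ulna. The calvaria arrays stood above the others by signal and mandible above ulna, but no pair passed the test. The difference of calvaria from ulna was 0.84 (interval 0.13 to 1.55, adjusted p = 0.0749).

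**Figure D2:**
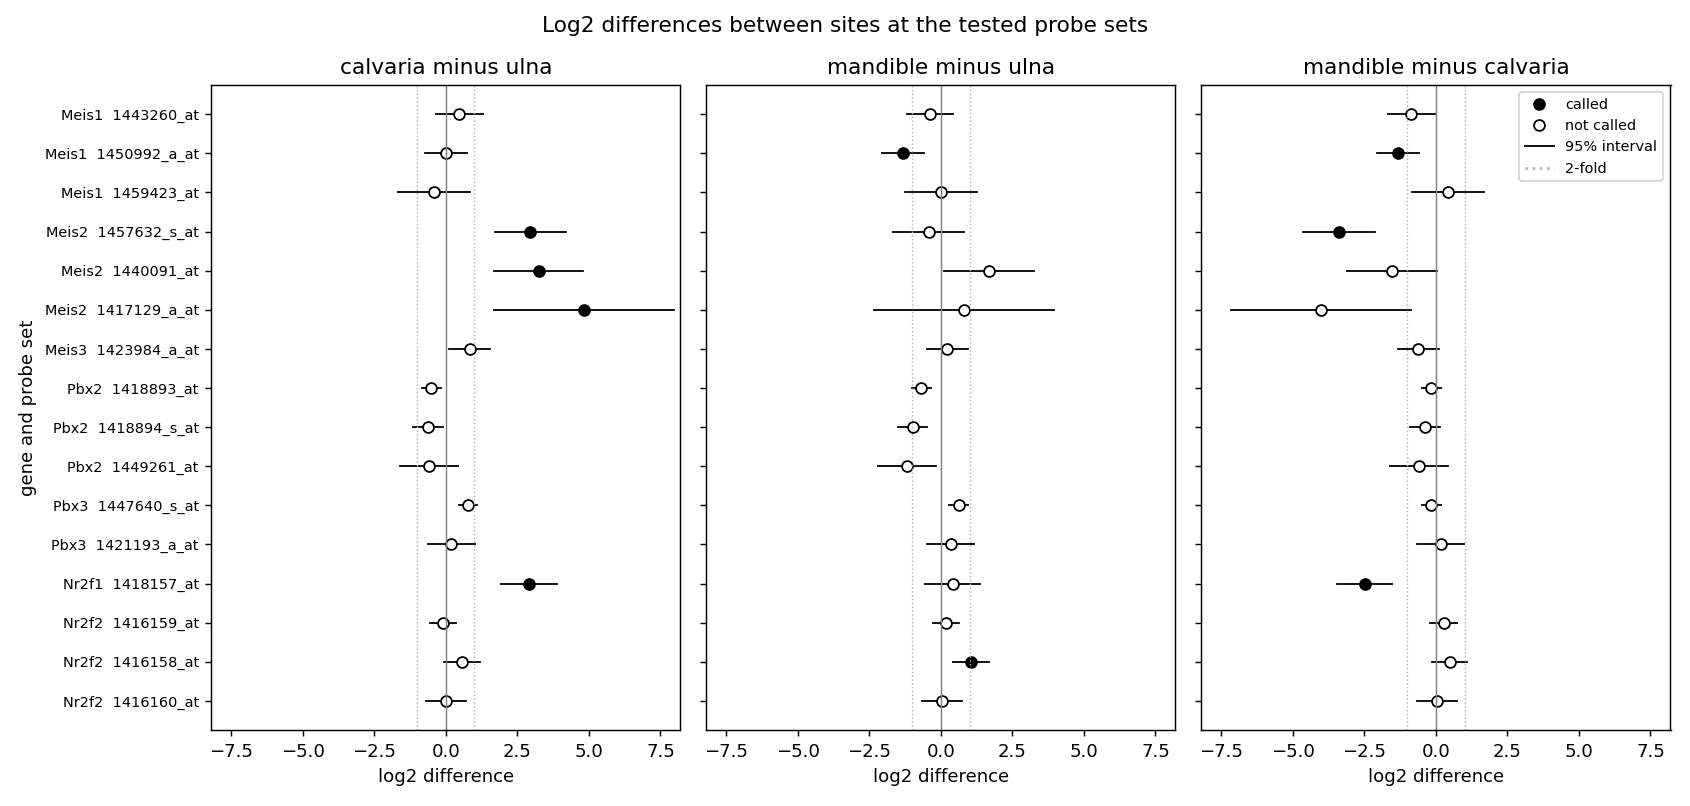
Log2 differences (horizontal axis) with 95% intervals for the 16 tested probe sets in calvaria minus ulna, mandible minus ulna and mandible minus calvaria, with filled points for called differences and dotted lines at 2-fold. Calls lie at Meis2 and Nr2f1 wherever calvaria is compared, apart from the 2 lesser Meis2 probe sets in mandible minus calvaria (-1.54 and -4.03), and at 1 probe set each of Meis1 and Nr2f2.

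Pbx2, which binds DNA as a partner of Meis and Hox proteins, had its highest level in ulna at all 3 probe sets. At 1418893_at the signal was 122 and 113 in mandible, 124 and 133 in calvaria, and 187 and 161 in ulna. Both ulna arrays stood above the rest. Relative to ulna the log2 difference was -0.68 in mandible (SE 0.15, adjusted p = 0.0042) and -0.51 in calvaria (SE 0.15, adjusted p = 0.0268), past the adjusted p and under 2-fold.

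A second Pbx2 probe set, 1418894_s_at, gave 46.2 and 47.7 in mandible, 57.8 and 60.7 in calvaria, and 78.8 and 94.0 in ulna. The 3 sites did not overlap, in the order ulna, calvaria, mandible. Mandible against ulna was -0.99 (SE 0.23, adjusted p = 0.00565), just under the 2-fold limit, and calvaria against ulna was -0.61 (adjusted p = 0.072). At 1449261_at the arrays of a site lay far apart, with 55.6 and 23.1 in mandible, 71.5 and 38.9 in calvaria, and 55.4 and 100.1 in ulna, and no pair passed.

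Pbx3, the other Pbx gene measured, ran opposite to Pbx2. Its probe set 1447640_s_at read 180 and 188 in mandible, 190 and 209 in calvaria, and 121 and 101 in ulna. The ulna arrays were below the other 4, and both mandible arrays lay just below both calvaria arrays, a difference that was not called (-0.16, SE 0.15, adjusted p = 0.504). The log2 difference from ulna was 0.77 in calvaria (SE 0.15, adjusted p = 0.00244) and 0.62 in mandible (SE 0.15, adjusted p = 0.00587), again under 2-fold. The probe set 1421193_a_at, for alternative transcripts, read 47.4 and 70.6 in mandible, 42.6 and 59.3 in calvaria, and 58.1 and 30.3 in ulna, with all sites overlapping.

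Nr2f1 was the other gene called in both comparisons with calvaria. It was read by 1 probe set, 1418157_at, with 26.6 and 14.4 in mandible, 114 and 101 in calvaria, and 14.9 and 12.4 in ulna. Both calvaria arrays lay far above the others, and mandible and ulna overlapped. This probe set passed the filter on low signal through the calvaria arrays alone, so it had to be highest there. Calvaria exceeded ulna by 2.91 on the log2 scale (SE 0.44, interval 1.94 to 3.87, adjusted p = 0.000522), and mandible minus calvaria was -2.49 (SE 0.44, adjusted p = 0.00197). Mandible minus ulna was 0.41 (interval -0.55 to 1.38, adjusted p = 0.479). The call of calvaria against ulna stood under the 15 alternatives that tested this probe set, but with a filter at the 75th percentile Nr2f1 was no longer tested.

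Nr2f2, which is known for its role in veins and lymphatic vessels as well as in mesenchyme, did not share the pattern of Nr2f1. At its brightest probe set, 1416159_at, the signal was 88.9 and 88.2 in mandible, 80.5 and 62.4 in calvaria, and 73.5 and 70.7 in ulna. The calvaria and ulna arrays overlapped, and the log2 difference between them was -0.10 with an interval of -0.57 to 0.37. At 1416158_at the signal was 71.4 and 86.1 in mandible, 59.6 and 50.1 in calvaria, and 41.0 and 29.8 in ulna.

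The 3 sites were separate at that probe set, and mandible rose above ulna by 1.05 on the log2 scale (SE 0.28, adjusted p = 0.0113), close to the 2-fold limit. This call was lost without mandible replicate 2 (0.90, adjusted p = 0.0859) and without ulna replicate 2 (0.83, adjusted p = 0.0631). The third tested probe set, 1416160_at, held 39.0 to 51.3 at all sites with overlap, and the 3 that were not tested read between 2.39 and 31.7. Mandible had the highest mean at all 3 tested probe sets, and its difference from ulna was called at 1. The summed signal of 10 endothelial genes was 1061 and 1134 in mandible, 919 and 1032 in calvaria, and 1102 and 1220 in ulna, and its part in the Nr2f2 values was not tested.

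Counted over probe sets, 4 of the 16 tested were higher in calvaria than in ulna and 0 were lower, against 6.9% higher and 4.95% lower among all 25233 probe sets tested. Past the adjusted p alone were 6 of 16, where 29.6% of all probe sets were. Meis2's 3 tested probe sets and Nr2f1 passed the filter on low signal through the 2 calvaria arrays alone, so that they had to be higher there, and their signals below the array median elsewhere make the size of the fold uncertain. The count is therefore no support beyond the values themselves. The median log2 difference over all probe sets was -0.08.

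Counted over genes, with the brightest tested probe set for each, 2 of 7 were higher in calvaria than in ulna, where 8.36% of 12326 genes were higher and 4.54% lower. In mandible against calvaria 2 of 7 genes were lower and 0 higher, against 4.01% lower and 5.14% higher over all genes. In both comparisons the 2 genes were Meis2 and Nr2f1, which were tested only because of their calvarial signal, so nothing is read from these counts against the background.

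Over probe sets, 3 of 16 were lower in mandible than in calvaria and 0 higher, where 3.48% of all were lower and 4.09% higher. The same 3 were past the adjusted p alone, against a background of 21.9%. All 3 comparisons use the same 6 arrays, and calvaria enters both comparisons in which Meis2 and Nr2f1 were called.

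Between mandible and ulna the shares called were no higher than over all probe sets. Of the 16 probe sets 1 was higher in mandible (Nr2f2, 1416158_at) and 1 lower (Meis1, 1450992_a_at), while 9.36% of all probe sets were higher and 11.3% lower. That balance over all probe sets depends on the scaling, with 2362 higher and 2862 lower here and 2714 higher and 2272 lower in the values as deposited. Past the adjusted p alone were 5 of 16, where 43.4% of all probe sets were. By the brightest probe set 0 of 7 genes were called in limma's test, against 11% of all genes higher and 10.9% lower. The 2 of 7 at an unadjusted p under 0.05 were Pbx2 and Pbx3. Both also passed the adjusted p (0.0042 and 0.00587 in limma's test) and missed only the 2-fold limit. The alternatives in which the probe set with the largest difference stood for a gene or the fold limit was dropped each gave 2.

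The genes whose pattern over the 6 arrays was nearest to Meis2 were Aldoc, a glycolytic aldolase prominent in brain, Ttyh1, a membrane protein of neural cells, and Foxp2, a forkhead transcription factor. Their distances to it were 0.456, 0.601 and 0.626, each taken over log2 values centred on the gene's own mean. Foxp2 read 23.8 and 24.6 in mandible, 205 and 191 in calvaria, and 20.4 and 39.4 in ulna, and Aldoc 38.3 and 33.4 in mandible, 383 and 371 in calvaria, and 28.9 and 51.6 in ulna. Nearest to Nr2f1 were Kif5c, a neuronal kinesin (0.436), Il33, a cytokine of stromal and endothelial nuclei (0.490), and Dlgap3, a scaffold protein of synapses (0.601). Meis2 and Nr2f1 were 1.17 apart by the same measure.

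Some markers of neurons were at their highest in the calvaria arrays too, and others in the mandible arrays. Snap25, a protein of synaptic vesicle fusion, read 0.457 and 0.899 in mandible, 415 and 362 in calvaria, and 23.4 and 12.1 in ulna. Syt1, a synaptic calcium sensor, read 25.5 and 14.8 in mandible, 185 and 169 in calvaria, and 35.7 and 31.0 in ulna. Calvaria was the highest site for both of these synaptic genes, while the next 3 genes had their highest mean in mandible. Stmn2, a neuronal regulator of microtubules, read 116 and 113 in mandible, 32.3 and 52.0 in calvaria, and 22.1 and 22.8 in ulna. Tubb3 (60.5 and 48.6 in mandible, 39.3 and 26.7 in calvaria) and Gap43 (72.3 and 48.1 in mandible, 56.9 and 35.3 in calvaria) are genes of growing nerve fibres. The 2 genes of synapses and the 2 neurofilament genes Nefl and Nefm were thus highest in calvaria, and 3 other neuronal genes were not. Ptgds, an enzyme abundant in meninges, read 42.8 and 48.6 in mandible, 1916 and 1406 in calvaria, and 41.2 and 29.5 in ulna.

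**Figure D3:**
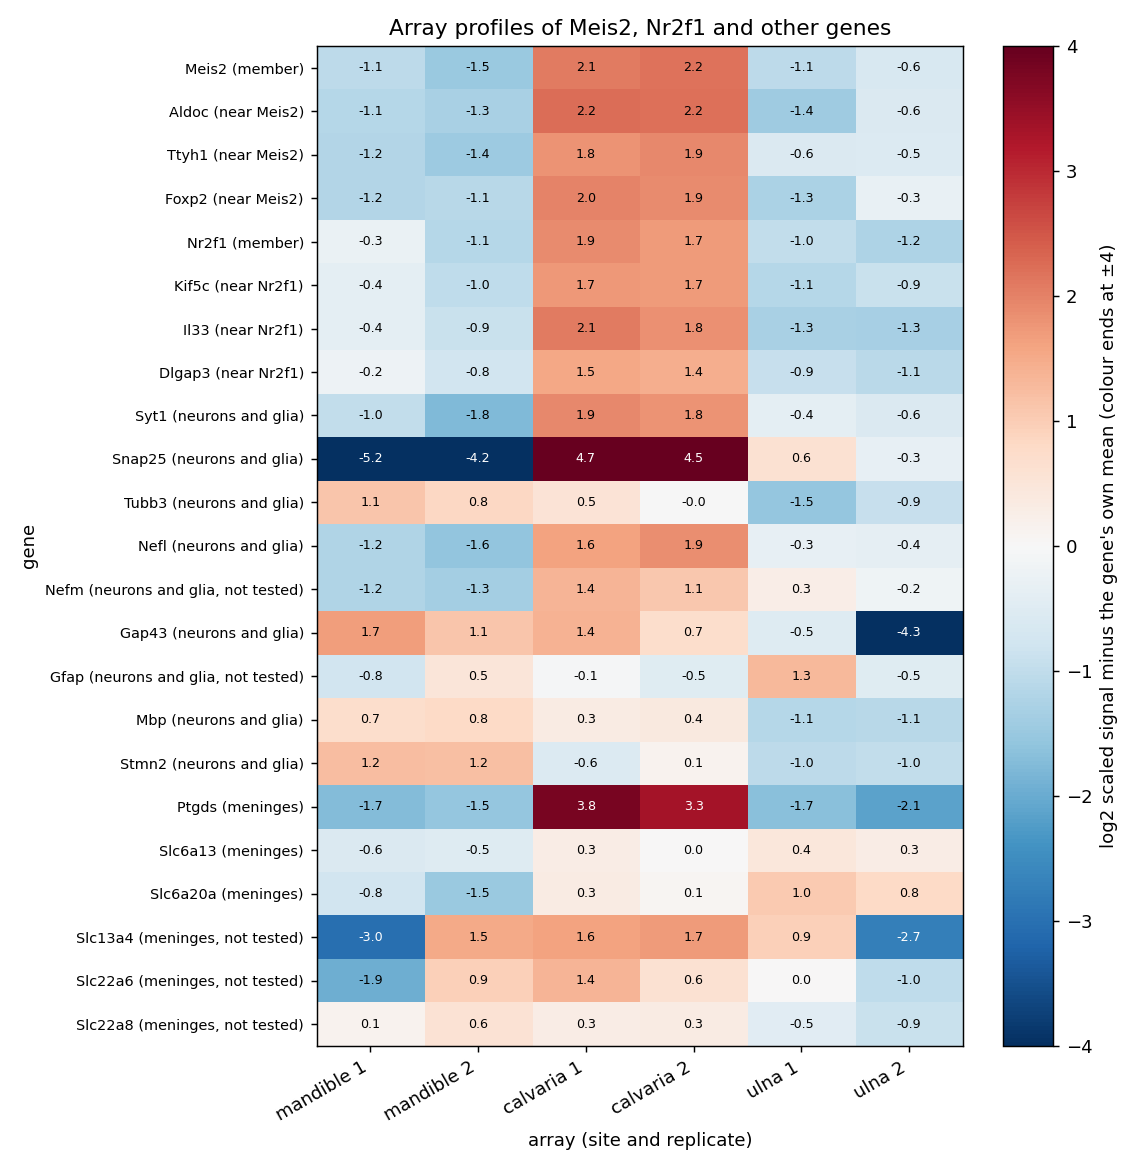
Log2 scaled signal of each gene minus its own mean over the 6 arrays (colour and printed value), for Meis2 and Nr2f1 with the 3 genes nearest to each and for all 9 markers of neurons and glia and all 6 of meninges on the array, with arrays of mandible, calvaria and ulna from left to right. Snap25, Syt1, Nefl, Nefm and Ptgds have their high values on the 2 calvaria arrays, as Meis2 and Nr2f1 do, while Stmn2, Tubb3, Gap43 and Mbp have their highest mean in mandible and Slc6a13 and Slc6a20a in ulna.

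Taken as lists, 6 of 7 tested genes of neurons and glia were higher in calvaria than in ulna and 0 lower. Over all genes 8.36% were higher and 4.54% lower. The median log2 difference of the list was 2.08, where that of all genes was -0.05. Snap25 and Nefl passed the filter on low signal through the calvaria arrays alone, so they had to be highest there. In mandible against calvaria 1 of 7 was higher and 3 lower, the lower ones being Snap25, Syt1 and Nefl. The 9 genes on the array summed to 1207 and 1227 in mandible, 1529 and 1486 in calvaria, and 407 and 356 in ulna, with Mbp, a myelin protein, at 905 and 965 in mandible, 676 and 712 in calvaria, and 233 and 237 in ulna. A mean signal below 10 was found for 2 of the 9 genes in mandible, 0 in calvaria and 1 in ulna.

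Of the 6 meningeal genes 3 were tested, and Ptgds was the 1 called higher in calvaria than in ulna. The others varied, as Slc6a13 read 23.9 and 24.6 in mandible, 42.3 and 34.7 in calvaria, and 44.5 and 39.6 in ulna, and Slc6a20a was highest in ulna at 163 and 137. Of the genes not tested, Slc13a4 (1.32 and 30.7 in mandible, 31.6 and 33.5 in calvaria, 19.1 and 1.46 in ulna) and Slc22a6 (2.62 and 19.2 in mandible, 25.2 and 14.9 in calvaria, 9.44 and 4.57 in ulna) had their highest mean in calvaria, with the arrays of a site far apart elsewhere. The list summed to 134 and 171 in mandible, 2134 and 1592 in calvaria, and 286 and 218 in ulna. Ptgds alone gave 1916 and 1406 of the calvarial sums, so the calvarial lead of the list rests on 1 gene. The part of neural or meningeal tissue in the calvarial levels of Meis2 and Nr2f1 was not tested.

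**Figure D4:**
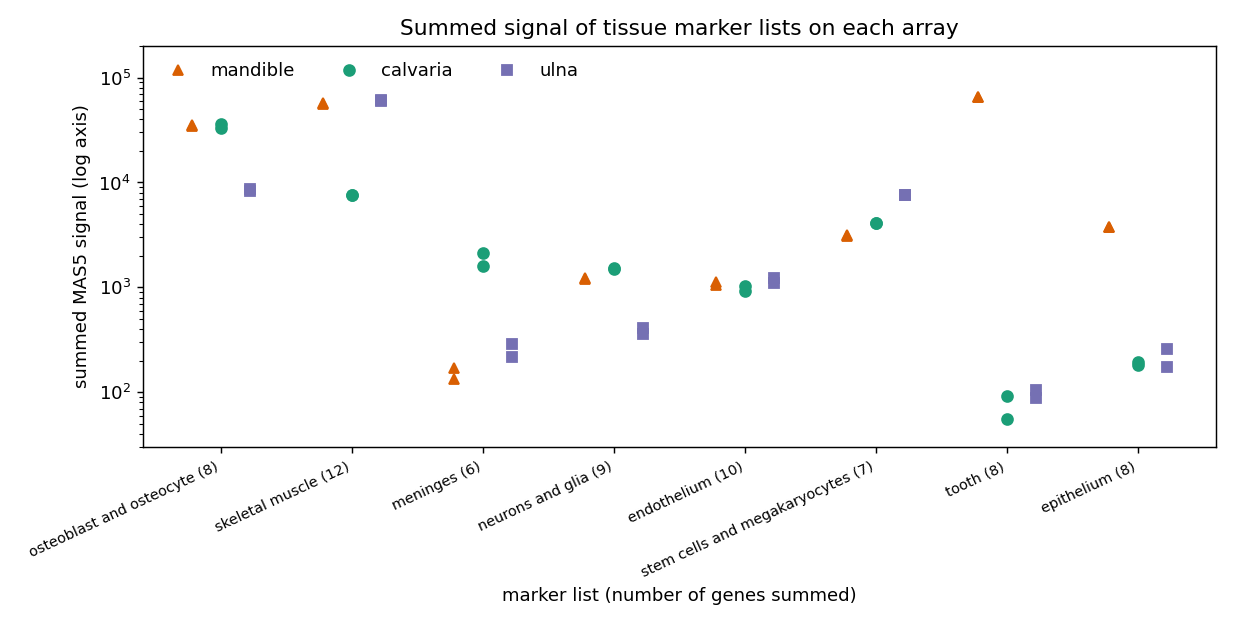
Summed MAS5 signal (log axis) of 8 marker lists on each array, with mandible, calvaria and ulna from left to right and the number of genes summed in brackets. Calvaria stands lowest for skeletal muscle (7620 and 7513) and highest for meninges (2134 and 1592), where Ptgds alone gives 1916 and 1406. Mandible alone is high for tooth (64534 and 64724) and epithelium (3779 and 3753).

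The sites also differed in other tissues held by the dissected bone. Skeletal muscle genes summed to 56926 and 55332 in mandible, 7620 and 7513 in calvaria, and 60259 and 60994 in ulna, and 12 of 12 were lower in calvaria than in ulna. The mandible held its teeth, with 8 of 8 tooth genes higher there than in ulna, and 5 of 7 tested epithelial genes higher. Most of the tooth genes, and Krt14 and Trp63 among the epithelial genes, passed the filter through the mandible arrays alone, so they had to be higher there. Osteoblast and osteocyte genes were higher than in ulna for 7 of 8 both in mandible and in calvaria. Over all genes 11% were higher and 10.9% lower in mandible than in ulna. In calvaria against ulna these shares were 8.36% and 4.54%. The part of muscle, tooth, epithelium and bone cells in the member levels was not tested.

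In the list of partners and relatives of Meis and Pbx the only gene called was Mkx. The list held Pbx4, Pknox1, Pknox2, Tgif1, Tgif2, Pbxip1 and Mkx, and binding of Mkx to Meis or Pbx was not tested. Of these 7 genes on the array 6 were tested. In calvaria and in mandible 1 was higher than in ulna and 0 lower, and 0 differed between mandible and calvaria. Over all genes 8.36% were higher and 4.54% lower in calvaria than in ulna. In mandible against ulna 11% were higher and 10.9% lower, and in mandible against calvaria 5.14% and 4.01%. Nothing is read from these counts. Mkx, a related homeodomain gene of tendon, read 79.1 and 81.1 in mandible, 60.4 and 53.9 in calvaria, and 9.40 and 12.5 in ulna. The median log2 difference was 0.05 in calvaria and 0.06 in mandible against ulna, where all genes had -0.05 and -0.08.

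Of the nuclear receptor partners 10 were on the array and 9 were tested. Of these 1 was higher in calvaria than in ulna, 2 were higher and 1 lower in mandible than in ulna, and 0 were called between mandible and calvaria. Over all genes 8.36% were higher and 4.54% lower in calvaria than in ulna. In mandible against ulna 11% were higher and 10.9% lower, and in mandible against calvaria 5.14% and 4.01%. Nothing is read from these counts. Bcl11b, which binds COUP-TF proteins, read 103 and 120 in mandible, 111 and 97.0 in calvaria, and 28.3 and 31.6 in ulna. Zfpm2, a cofactor of GATA factors that also binds COUP-TFII, was higher in mandible (63.1 and 54.3) than in ulna (13.2 and 14.5). It passed the filter through the mandible arrays alone, so it had to be higher there. Zfpm1, a relative known from blood cells, was lower in mandible (115 and 129) than in ulna (258 and 324).

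**Figure D5:**
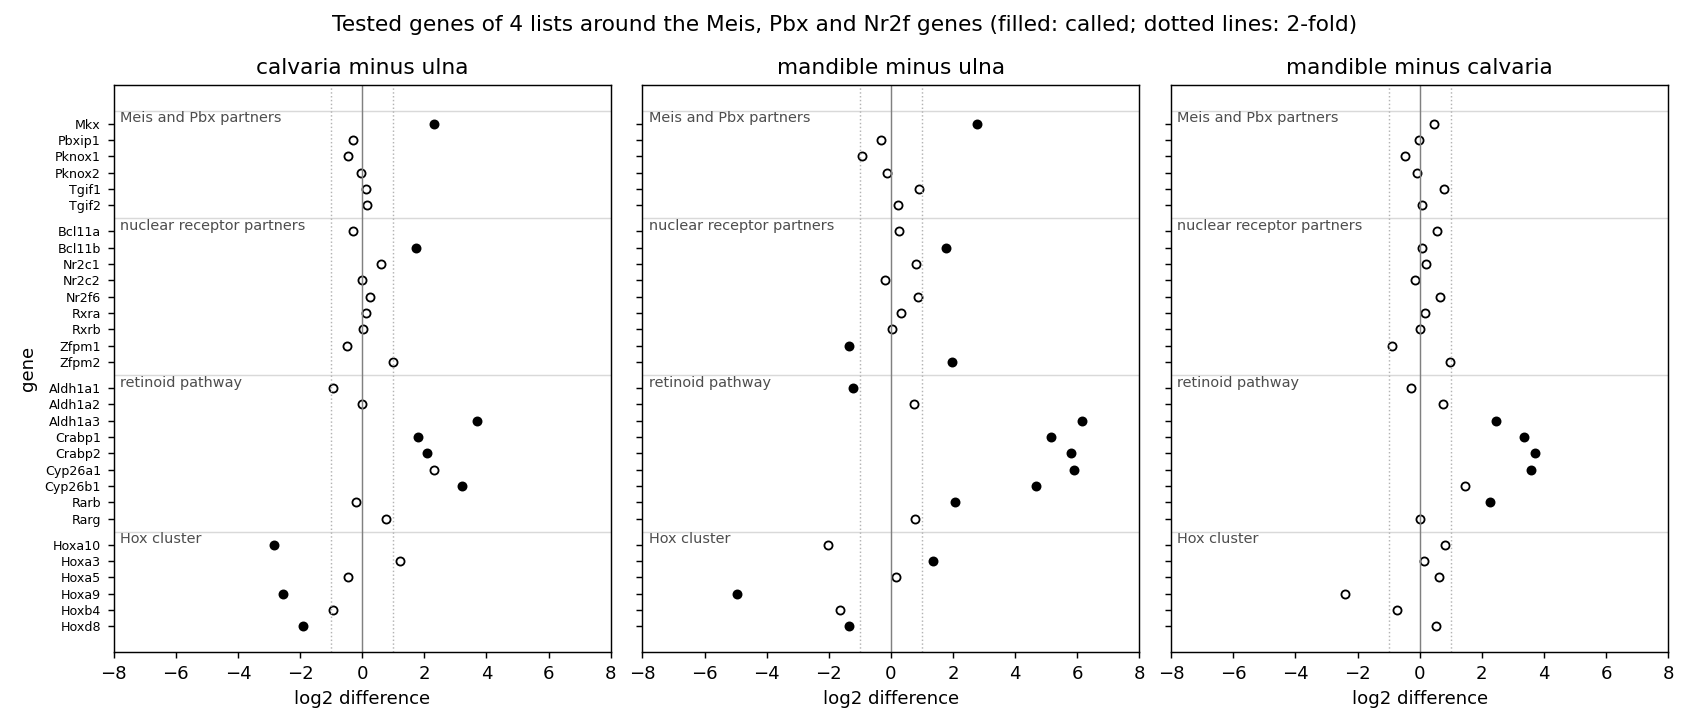
Log2 differences (horizontal axis) of the tested genes in 4 lists, named on the vertical axis, for calvaria minus ulna, mandible minus ulna and mandible minus calvaria, with filled points for called differences and dotted lines at 2-fold. The called retinoid genes lie to the right in mandible minus ulna, up to 6.16 for Aldh1a3, apart from Aldh1a1 at -1.23, and the called Hox genes lie to the left, down to -4.95 for Hoxa9, apart from Hoxa3 at 1.36.

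The retinoid pathway is known to act upstream of Meis genes in the chick limb bud. Its genes called between mandible and calvaria were higher in mandible, and their relation to Meis2 and Nr2f1 was not tested. In mandible against ulna 6 of 9 tested genes were higher and 1 lower (median log2 difference 4.68), against 11% and 10.9% of all genes. In calvaria against ulna 4 were higher and 0 lower (median 1.80), against 8.36% and 4.54%. In mandible against calvaria 5 were higher and 0 lower (median 2.26), against 5.14% and 4.01%. Cyp26a1, Crabp1 and Crabp2 passed the filter on low signal through the mandible arrays alone, so they had to be higher there. Nothing is read from these counts and medians against the background. The mandible was taken with its teeth, and their part in these levels was not tested. Aldh1a3, which makes retinoic acid, read 215 and 276 in mandible, 42.4 and 43.4 in calvaria, and 2.91 and 3.37 in ulna. Crabp2, which carries it to its receptors, read 287 and 283 in mandible, 16.2 and 27.0 in calvaria, and 2.74 and 7.97 in ulna.

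Cyp26b1, which degrades retinoic acid, was also higher in mandible (71.7 and 83.0) and in calvaria (41.5 and 17.7) than in ulna (2.34 and 3.30). Rarb, a receptor that retinoic acid induces, was higher in mandible (113 and 128) than in calvaria (19.8 and 30.2) or ulna (35.2 and 19.7). Aldh1a1 was the 1 gene lower in mandible (225 and 353) than in ulna (560 and 665). Of the 11 genes on the array, 6 had a mean signal below 10 in ulna, so that those folds rest on signals under the array median.

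Hox genes, whose products bind DNA with Meis and Pbx, were mostly dim, and 6 of 33 were tested. Of these 3 were lower in calvaria than in ulna and 0 higher, where 4.54% of all genes were lower and 8.36% higher. In mandible against ulna 2 were lower and 1 higher, where 10.9% of all genes were lower and 11% higher. Between mandible and calvaria 0 were called. Hoxa10 and Hoxd8 passed the filter on low signal through the ulna arrays alone, so they had to be higher there. Nothing is therefore read from these counts. Hoxa9 read 2.01 and 17.4 in mandible, 38.4 and 24.6 in calvaria, and 163 and 174 in ulna, and Hoxa10 8.93 and 18.2 in mandible, 5.52 and 8.89 in calvaria, and 56.5 and 39.9 in ulna. Hoxa9 and Hoxa10 thus had their highest signals in ulna. Hoxa3, a gene of the pharyngeal region, read 39.5 and 53.9 in mandible, 36.0 and 46.3 in calvaria, and 22.5 and 12.3 in ulna. On the log2 scale its difference from ulna was called in mandible (1.36) and not in calvaria (1.22, adjusted p = 0.0589 in limma's test). The relation of the Hox levels to Meis2 and Nr2f1 was not tested.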

How the data were processed

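The deposited values are MAS5 intensity on a linear scale (version not given in the sources used here), made by the authors from Affymetrix mouse GeneChip arrays after 1 round of labelling and scaled to a 2% trimmed mean of 100 per array. No genome build is needed for a probe set, and none was given in the sources used here. The number of arrays, 2 per site, limits the precision.

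Each array was divided by its median and log2 was taken with no offset. Probe sets were named from the platform annotation (34958 with 1 symbol, 932 with several, 9211 with none), 64 control probe sets were left out, and 25233 (55.9%) that exceeded the median of the array on 2 or more of the 6 arrays were tested. Because MAS5 detection calls were not used here, a dim signal may be background, and folds against it are uncertain. A mean per site was fitted over all 6 arrays with limma 3.58.1 in R 4.3.3 and moderated variances with a trend (residual degrees of freedom 3, prior 7.67). P-values were adjusted by Benjamini and Hochberg over all tested probe sets of a comparison. Each probe set is given, and the brightest tested one stands for its gene. Similar genes are those at the smallest Euclidean distance, 3 per gene called at its brightest probe set, and up to 4 called genes of a list could be named. The script was tested on simulated data. Python 3.11.15 with matplotlib 3.10.9 made the figures.

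The 7 genes and the lists were chosen with earlier results of these data known. The alternatives were other scalings, filters, an offset, other variance models, a replicate block, other probe sets per gene, no fold limit, and leaving out each array. Some items are not reported here, and the rat arrays and histology of the paper were not analysed here.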

Additional observations from a re-analysis of the deposited data

How the results depend on the processing

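Over the 7 genes, 3 comparisons and all alternatives, a gene kept its direction and its side of the threshold in 366 cases, turned direction in 8, gained a call in 7 and lost one in 3. Counts over all member probe sets were made after seeing the data. With a filter at the 75th percentile, which only 1 probe set each of Pbx2 and Pbx3 passed, 0 genes and 0 member probe sets were called in all 3 comparisons. With no fold limit 4 genes were called in calvaria against ulna and 2 in mandible against ulna (5 probe sets). With the probe set of the largest difference 2 genes were called in mandible against ulna. Without moderated variances 1 gene was called in mandible against calvaria, Meis2 (-3.38, adjusted p = 0.0319), and Nr2f1 lost its call (-2.49, adjusted p = 0.069). An offset of 0.25 of the median left 1 probe set in mandible against ulna, and the fit of only 4 arrays called 5 in mandible against calvaria. The cause of these shifts was not tested, apart from the filter and the fold limit, which act by construction.

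Leaving out 1 array gave 1 to 2 genes and 1 to 4 probe sets in calvaria against ulna (1 gene and 1 probe set without calvaria replicate 2, 2 probe sets without calvaria replicate 1), 0 genes and 1 to 4 probe sets in mandible against ulna (4 without ulna replicate 1, 1 without ulna replicate 2), and 2 genes and 2 to 4 probe sets in mandible against calvaria (2 without mandible replicate 1 or calvaria replicate 1). Directions turned only for differences that were not called. Nr2f2 in calvaria against ulna became 0.57 with the largest difference, 0.15 with the mean of its probe sets and 0.082 without calvaria replicate 2 (-0.28 to 0.082 over the arrays left out). Meis2 in mandible against ulna became 1.69 and 0.69, and Pbx3 in mandible against calvaria 0.16 and 0.0035, with the same 2 choices of probe set. Nr2f1 in mandible against ulna became -0.021 without mandible replicate 1 (-0.021 to 0.85 over the arrays left out).

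Over all probe sets 2991, 5224 and 1909 were called in calvaria against ulna, mandible against ulna and mandible against calvaria. These became 1783, 3107 and 1189 with the stricter filter, 1566, 3455 and 723 without moderation, 7475, 10961 and 5532 with no fold limit, and 1553, 2657 and 1103 with 1 mean per gene. The values as deposited moved the median log2 difference of mandible against ulna to -0.02, against -0.13, and no direction of a gene at its brightest probe set turned under another scaling. With a replicate block 2, 0 and 2 genes and 4, 2 and 3 probe sets were called. Arrays with the same number did not deviate together (r of -0.0048, -0.0123 and 0.0058). With 1 difference between arrays per site, this cannot exclude that arrays of the same number came from the same mice.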
